A study of Rattus norvegicus with 6 samples.

Results

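The genes described here encode the cytosolic factors that start and extend protein chains on the ribosome, together with a few proteins that bind or modify those factors. Every feature of the expression table whose symbol begins with Eif and a digit from 1 to 6, apart from the Eif2ak kinase genes, or with Eef and a digit from 1 to 2 was taken. This gave 65 genes of 30001 features, 51 with Eif symbols and 14 with Eef symbols. They were measured by RNA sequencing in cultured neonatal rat ventricular myocytes (NRVMs), primary heart muscle cells of Sprague-Dawley pups no older than 3 days. The 3 knockdown libraries came from cells given sh-Decr1, a short hairpin RNA against Decr1, and the 3 control libraries from cells given the non-targeting reagent that the labels call NC. Cells of both groups were left for 2 h, the unattached cells were transferred to fresh dishes in medium with 10% serum for 24 h, and the experiment followed. Attachment for a short time depletes other heart cells but need not remove them, and both groups carry this limit. All 6 libraries are in batch 1, and the labels do not say whether each came from its own culture, so the p-values measure the spread between these libraries, which may be technical.

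Protein synthesis begins when eIF2 brings the initiator methionyl-tRNA to the small ribosomal subunit, eIF3 holds the initiation complex together, and eIF4F recruits the capped messenger RNA. The eIF1 proteins and eIF5 act while the start codon is found, and eIF5B then joins the large subunit. In elongation, eEF1A delivers each aminoacyl-tRNA, the other eEF1 subunits recharge eEF1A with GTP, and eEF2 moves the ribosome along the message. In heart and skeletal muscle, eEF1A exists in 2 forms, and Eef1a2 is the form known in rodents to take over from Eef1a1 as muscle matures after birth.

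Decr1 encodes a mitochondrial dienoyl-CoA reductase needed to break down polyunsaturated fatty acids. It had 3.33, 1.24 and 2.36 FPKM (fragments scaled by gene length and library size) in the knockdown libraries, from 148, 55 and 99 reads, against 43.6, 44.3 and 42.8 FPKM in the control libraries, from 2071, 2089 and 2041 reads. The knockdown mean was 5.30% of the control mean, and the groups did not overlap (two-sided exact permutation p = 0.1, the smallest p that 3 against 3 libraries allow). Depths were 35290664 to 37413240 fragments in knockdown and 39659092 to 40108670 in control libraries. With those depths, 3 reads on a gene of 1 kb correspond to 0.0748 to 0.0850 FPKM.

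RNA of cell type markers also differed between the groups, in a table where 48.4% of all features were higher and 32.4% lower. All 10 fibroblast markers tested were lower in knockdown libraries, and their summed level was 617 to 712 FPKM there, against 7305 to 8129 FPKM in control libraries. Of 12 cardiomyocyte markers, 5 were higher and 7 lower, with sums of 13098 to 13998 FPKM in knockdown and 18713 to 19344 FPKM in control libraries. Nppa was the largest term of every sum, at 4703, 5129 and 5199 FPKM in knockdown and 11389, 11911 and 11806 FPKM in control libraries. The sums therefore need not follow the other markers, and the 5 higher ones were Tnnt2, Tnni3, Actc1, Myl3 and Actn2. Leukocyte markers summed to 341 to 402 FPKM in knockdown and 549 to 610 FPKM in control libraries, with 0 higher and 3 lower of 6 tested (6 lower after either other scaling). Of 6 mural markers, 2 were higher and 4 lower (273 to 296 FPKM in knockdown, 265 to 286 FPKM in control). These close sums hold opposite changes. Cnn1 averaged 207 FPKM in knockdown and 88.0 FPKM in control libraries, and Pdgfrb 24.0 FPKM in knockdown and 144 FPKM in control libraries. Of 5 endothelial markers, 1 was higher and 3 lower (12.8 to 13.9 FPKM in knockdown, 13.5 to 14.8 FPKM in control). Neuronal and Schwann cell markers summed to 9.45 to 10.3 FPKM in knockdown and 42.6 to 45.7 FPKM in control libraries, and Tubb3 and S100b, the 2 tested, were both lower. Mfap5, Dpt and S100b averaged under 1 FPKM in knockdown libraries. They passed the filter, a mean of 1 FPKM across the 6 libraries, only through the control libraries. No marker on these lists was at 0 in every library. The part that these cell types have in the values below was not tested, and in bulk RNA fewer cells of a type cannot be told apart from less RNA per cell.

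Of the 65 genes, 61 averaged 1 FPKM or more across the 6 libraries and were tested. With limma on log2(FPKM + 1) and Benjamini-Hochberg adjustment over all 11975 features tested, 28 were higher in knockdown, 20 were lower and 13 did not pass the threshold of 0.05. Those 48 genes are 78.7% of the members tested, against 80.8% of all features, so the set changed about as often as the rest of the table. The higher members made up 45.9%, against 48.4% of all features, and the lower members 32.8%, against 32.4%. The median log2 fold change was 0.10 over members and 0.14 over all features, and the median absolute change 0.36 over members and 0.48 over all features. Changes of at least 1 on the log2 scale were found for 2 higher members (Eif6 and Eif1ad, with 10.9% of all features) and 1 lower member (Eef1a1, with 8% of all features). In 51 members, 83.6% of those tested, no knockdown library overlapped a control library, against 82.3% of all features.

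Because the median of all features lay above 0, the split between higher and lower members depended on the scale. After median-ratio scaling of the libraries 21 members were higher and 26 lower, and after quantile normalization 21 were higher and 24 lower. Over all 11975 features, median-ratio scaling gave 4777 higher and 4773 lower, and quantile normalization 4989 higher and 4565 lower. A total of 21 members were higher and 19 lower on all 3 scales, a count that was not made over all features. Members whose call rests on the deposited scale are named as such below.

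**Figure D1:**
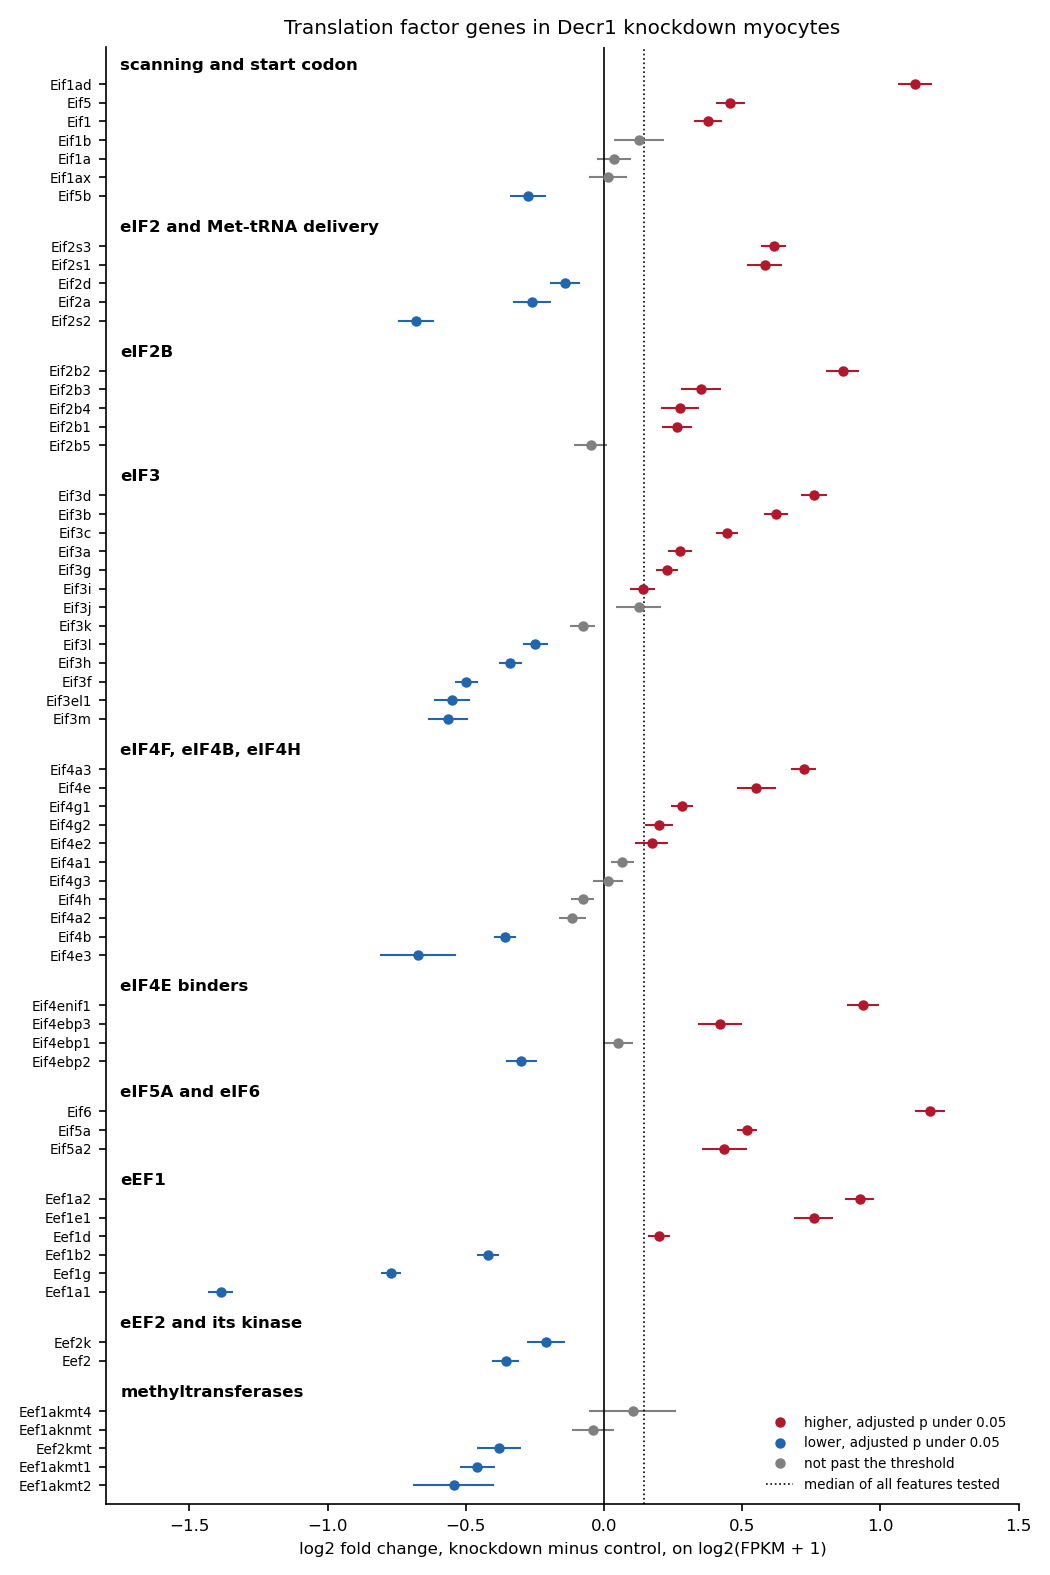
Log2 fold change (knockdown minus control, on log2(FPKM + 1)) with its standard error for each of the 61 members tested, grouped by role. Red marks members higher in knockdown, blue those lower and grey those not past the threshold, and the dotted line is the median of all features at 0.14. Eif6 and Eif1ad lie farthest to the right, and Eef1a1 farthest to the left.

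The abundance of the set was carried by a few genes. Summed over all 65, the level was 7331, 7184 and 7339 FPKM in the knockdown libraries, against 9603, 9643 and 9547 FPKM in the control libraries. The knockdown sums were lower throughout. Eef1a1 made up 18.9% ± 0.485 of that sum in knockdown and 37.6% ± 0.391 in control libraries (SD, n = 3 each). Without Eef1a1, the sums were close, at 5905 ± 36.8 FPKM in knockdown and 5989 ± 17.4 FPKM in control libraries. The genes with Eef symbols summed to 3240 ± 80.5 FPKM in knockdown and 6070 ± 12.3 FPKM in control libraries, while those with Eif symbols summed to 4044 ± 26.5 FPKM in knockdown and 3528 ± 57.0 FPKM in control libraries. The Eef genes thus took a smaller and the Eif genes a larger share of the set's FPKM in knockdown.

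Among the 6 eEF1 genes, 3 were higher and 3 lower, where 48.4% of all features were higher and 32.4% lower. Eef1a1, the form of eEF1A found in most tissues, had 1413, 1320 and 1405 FPKM in knockdown libraries, against 3634, 3646 and 3547 FPKM in control libraries. Every knockdown library was far below every control library (log2 fold change -1.39, SE 0.04, adjusted p = 1.60e-09), and the knockdown mean was 38.2% of the control mean. Eef1a2, the muscle and nerve form, went the other way, with 135, 128 and 123 FPKM in knockdown libraries, against 65.3, 64.7 and 71.7 FPKM in control libraries. The groups did not overlap (log2 fold change 0.92, SE 0.05, adjusted p = 1.12e-07). Even so, Eef1a1 remained the more abundant form in every library of both groups.

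The other eEF1 subunits also diverged. Eef1g, the structural subunit of the exchange complex, had 508, 504 and 514 FPKM in knockdown libraries, against 860, 872 and 876 FPKM in control libraries (log2 fold change -0.77, SE 0.04, adjusted p = 2.58e-08). Eef1b2, which carries out nucleotide exchange on eEF1A, had 190, 195 and 186 FPKM in knockdown libraries, against 256, 261 and 249 FPKM in control libraries (log2 fold change -0.42, SE 0.04). Both were lower in knockdown without overlap. Eef1d, the other exchange subunit, averaged 69.1 ± 0.977 FPKM in knockdown and 60.1 ± 0.758 FPKM in control libraries (SD, n = 3 each), a call of higher that was lost under both other scalings. Eef1e1, which is also a component of the multi-synthetase complex that holds aminoacyl-tRNA synthetases together, had 36.1, 33.7 and 34.8 FPKM in knockdown libraries, against 18.2, 22.3 and 20.3 FPKM in control libraries. It was higher in all 3 knockdown libraries (log2 fold change 0.76, SE 0.07, adjusted p = 3.21e-06).

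Eef2, the translocation factor, had 928, 872 and 905 FPKM in knockdown libraries, against 1152, 1097 and 1216 FPKM in control libraries (log2 fold change -0.36, SE 0.05, adjusted p = 6.53e-05). It was lower without overlap, and its call was lost after quantile normalization (adjusted p = 0.0642). Its inhibitory kinase gene Eef2k was also lower, at 9.48, 10.0 and 11.1 FPKM in knockdown libraries, against 12.02, 12.4 and 11.4 FPKM in control libraries. That call (adjusted p = 0.0159) was lost without knockdown replicate 1 (0.0658) or without control replicate 2 (0.0535).

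**Figure D2:**
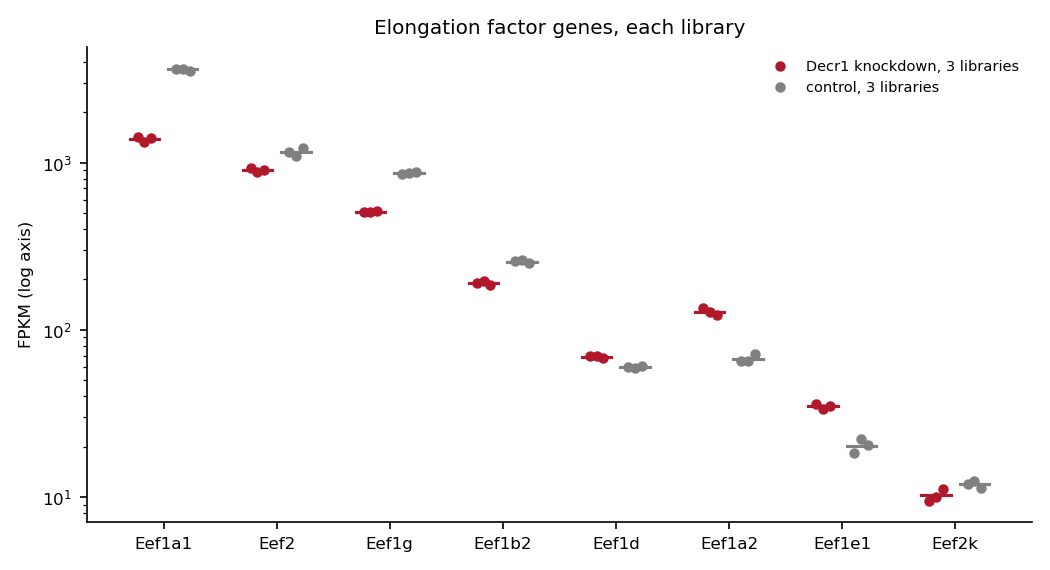
FPKM of 8 elongation factor genes in each library, on a log axis. Points are libraries (knockdown red and left, control grey and right) and bars are group means. Eef1a1 had 1320 to 1413 FPKM in knockdown and 3547 to 3646 FPKM in control libraries, while Eef1a2 had 123 to 135 FPKM in knockdown and 64.7 to 71.7 FPKM in control libraries.

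The genes of the enzymes that methylate the elongation factors were expressed at a low level. Of 5 tested, 3 were lower and 0 higher (4 lower after median-ratio scaling, with Eef1aknmt). Over all features, 32.4% were lower and 48.4% higher as deposited. Eef1akmt1, a lysine methyltransferase of eEF1A, had 4.13, 3.88 and 3.94 FPKM in knockdown libraries, against 5.67, 5.76 and 6.12 FPKM in control libraries. Eef1akmt2, another eEF1A lysine methyltransferase, had 2.25, 2.96 and 3.69 FPKM in knockdown libraries, against 5.55, 4.97 and 3.78 FPKM in control libraries. Eef2kmt, which methylates eEF2, had 0.821, 0.788 and 0.671 FPKM in knockdown libraries, against 1.26, 1.23 and 1.37 FPKM in control libraries. In these 3 genes the groups did not overlap, but Eef1akmt2 came close. Eef2kmt passed the filter of 1 FPKM only through the control libraries, with means of 0.760 FPKM in knockdown and 1.29 FPKM in control. Its call of lower is therefore not independent of the filter. Eef1akmt4 (1.70 to 3.29 FPKM in knockdown, 1.85 to 2.70 FPKM in control) and Eef1aknmt (6.22 to 7.20 FPKM in knockdown, 6.63 to 7.63 FPKM in control) did not pass. Eef1akmt3 was under the filter, with means of 0.242 FPKM in knockdown and 0.424 FPKM in control libraries.

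Many messages for elongation factors and ribosomal proteins are known to begin with a terminal oligopyrimidine tract, a run of C and T at the transcription start through which mTOR and LARP1 control their translation and stability. The bases around the RefSeq start of the gene are therefore shown for the 2 lower and the 2 higher members of largest change with a RefSeq sequence in each of the eEF1, eIF2 and eIF3 groups, for both lower members of the eEF2 group, and for Eif6. Each line gives 20 bases before the annotated start and 20 from it onward, on the gene's strand in GRCr8 (the build of the RefSeq table), with the longest run of C and T in capitals. The run may lie anywhere in the window and need not begin at the start base.
Eef1a1 (lower, chr8:88225050-88225089, minus strand): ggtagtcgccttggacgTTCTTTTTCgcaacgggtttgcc
Eef1g (lower, chr1:215289795-215289834, plus strand): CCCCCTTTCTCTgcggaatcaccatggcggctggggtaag
Eef2 (lower, chr7:9189219-9189258, minus strand): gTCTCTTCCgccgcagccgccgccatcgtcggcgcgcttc
Eef2k (lower, chr1:184824400-184824439, plus strand): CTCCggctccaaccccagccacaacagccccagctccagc
Eif2s2 (lower, chr3:163855551-163855590, minus strand): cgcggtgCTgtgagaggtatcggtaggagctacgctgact
Eif2a (lower, chr2:144911340-144911379, plus strand): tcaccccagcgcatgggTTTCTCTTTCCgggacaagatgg
Eif3m (lower, chr3:111897174-111897213, minus strand): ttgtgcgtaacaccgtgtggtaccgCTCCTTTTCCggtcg
Eif3f (lower, chr1:172369042-172369081, plus strand): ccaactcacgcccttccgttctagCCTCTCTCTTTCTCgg
Eef1a2 (higher, chr3:188652614-188652653, minus strand): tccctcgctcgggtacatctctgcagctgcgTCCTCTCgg
Eef1e1 (higher, chr17:26354227-26354266, plus strand): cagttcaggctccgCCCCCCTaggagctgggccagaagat
Eif2s3 (higher, chrX:62933680-62933719, minus strand): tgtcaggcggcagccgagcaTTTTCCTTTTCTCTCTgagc
Eif2s1 (higher, chr6:103405860-103405899, plus strand): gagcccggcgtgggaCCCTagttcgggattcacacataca
Eif3d (higher, chr7:111432721-111432760, minus strand): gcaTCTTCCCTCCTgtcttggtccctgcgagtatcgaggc
Eif3b (higher, chr12:19334749-19334788, minus strand): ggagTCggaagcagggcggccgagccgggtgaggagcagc
Eif6 (higher, chr3:164791391-164791430, minus strand): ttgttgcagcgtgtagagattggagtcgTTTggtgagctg

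Of 56 members with a RefSeq start sequence, a run of at least 8 pyrimidines in this window was found in 9 of 16 lower members, 3 of 27 higher members, 2 of 11 that did not pass and both untested members (Eif2s3y and Eif4e1b). Over all 21851 coding genes with such a sequence, 15.3% held a run of that length. The match was not one to one: Eif2s2 was lower with a longest run of 2 bases, and Eif2s3 was higher with a run of 16 bases that began at the annotated start. The windows, the run length and the genes shown were chosen after the expression values were known, so the counts are a description with no test. With a run of at least 6 bases the counts were 9 lower, 11 higher and 5 not past (35.7% of all), and with at least 10 bases they were 6, 2 and 1 (6.80% of all). The shorter run thus added higher members and members that did not pass, and no lower ones.

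The 3 subunits of eIF2, the GTP-binding carrier of the initiator tRNA, did not move together. Eif2s1, whose product is phosphorylated under stress to slow initiation, had 77.6, 81.0 and 80.7 FPKM in knockdown libraries, against 52.6, 58.2 and 48.5 FPKM in control libraries (log2 fold change 0.58, SE 0.06, adjusted p = 1.14e-05). Eif2s3, the GTP-binding subunit, had 85.5, 90.9 and 91.3 FPKM in knockdown libraries, against 58.0, 59.5 and 56.5 FPKM in control libraries (log2 fold change 0.61, SE 0.04, adjusted p = 5.97e-07). Both were higher in every knockdown library. Eif2s2, the remaining subunit, had 53.5, 55.1 and 54.4 FPKM in knockdown libraries, against 90.8, 94.3 and 78.4 FPKM in control libraries (log2 fold change -0.68, SE 0.06, adjusted p = 4.46e-06). Eif2s2 was thus the most abundant of the 3 in control libraries and the least abundant in knockdown libraries. All 3 directions held under both other scalings and without any single library.

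Eif2a and Eif2d encode proteins that can bring initiator tRNA to the ribosome without eIF2, and both were lower. Eif2a had 11.9, 11.9 and 11.5 FPKM in knockdown libraries, against 14.98, 15.2 and 12.8 FPKM in control libraries. Eif2d averaged 16.5 ± 0.548 FPKM in knockdown and 18.4 ± 0.811 FPKM in control libraries (SD, n = 3 each). The small change in Eif2d (log2 fold change -0.14, adjusted p = 0.0336) was no longer called when any library other than control replicate 2 was left out, with adjusted p up to 0.115. Eif2s3y, the Y-linked copy of Eif2s3, is listed at 0 in every library.

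Of the 5 genes of eIF2B, the exchange factor that recharges eIF2 with GTP, 4 were higher and 0 lower, where 48.4% of all features were higher and 32.4% lower. Eif2b2 changed most, with 83.2, 75.5 and 78.8 FPKM in knockdown libraries, against 40.3, 42.6 and 46.3 FPKM in control libraries (log2 fold change 0.86, SE 0.06, adjusted p = 3.69e-07). Eif2b3 had 22.4, 22.2 and 24.1 FPKM in knockdown libraries, against 16.6, 19.9 and 16.8 FPKM in control libraries. Both were higher without overlap and on all 3 scales, Eif2b2 encoding a subunit of the regulatory and Eif2b3 of the catalytic part. Eif2b1 (31.3 to 32.4 FPKM in knockdown, 24.9 to 28.1 FPKM in control) and Eif2b4 (14.4 to 16.7 FPKM in knockdown, 11.9 to 13.5 FPKM in control) were higher as deposited, and neither was called under either other scaling. Eif2b5, the catalytic subunit itself, had 16.0 to 18.2 FPKM in knockdown and 17.2 to 18.4 FPKM in control libraries, and was called lower only after median-ratio (log2 fold change -0.20) or quantile (-0.20) scaling.

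Around the start codon, 3 of 7 genes were higher and 1 was lower, where 48.4% of all features were higher and 32.4% lower. Eif1ad, named for its eIF1A domain, had 20.7, 22.2 and 19.9 FPKM in knockdown libraries, against 8.87, 9.63 and 8.67 FPKM in control libraries (log2 fold change 1.12, SE 0.06, adjusted p = 7.93e-08). Eif5, the GTPase activator that acts on eIF2 when the start codon is met, had 60.1, 61.4 and 62.0 FPKM in knockdown libraries, against 44.6, 46.9 and 41.5 FPKM in control libraries. Eif1, which guards the accuracy of start codon choice, had 327, 335 and 356 FPKM in knockdown libraries, against 256, 277 and 251 FPKM in control libraries. These 3 were higher in all knockdown libraries. Eif5b, the GTPase of subunit joining, was lower, at 13.8, 15.4 and 15.9 FPKM in knockdown libraries, against 18.2, 19.3 and 17.6 FPKM in control libraries. The genes of eIF1A did not pass, with Eif1a at 40.0 to 42.3 FPKM in knockdown and 37.2 to 43.8 FPKM in control libraries. Eif1ax had 25.8 to 26.9 FPKM in knockdown and 23.4 to 28.3 FPKM in control libraries, and Eif1b, a close paralogue of Eif1, 22.1 to 27.3 FPKM in knockdown and 19.9 to 24.6 FPKM in control libraries. In these genes the groups overlapped.

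All 3 genes of the eIF5A and eIF6 group were higher, where 48.4% of all features were higher. Eif6, whose product keeps the large ribosomal subunit from joining too early and takes part in its assembly, had 119, 120 and 111 FPKM in knockdown libraries, against 49.5, 49.2 and 54.5 FPKM in control libraries. No knockdown library overlapped a control library (log2 fold change 1.18, SE 0.05, adjusted p = 1.88e-08). The knockdown mean was 229% of the control mean, close to the 231% of Eif1ad. Eif5a, the hypusine-bearing factor that helps the ribosome through difficult peptide bonds, had 494, 487 and 496 FPKM in knockdown libraries, against 337, 350 and 343 FPKM in control libraries (log2 fold change 0.52, SE 0.04, adjusted p = 5.35e-07). Its paralogue Eif5a2 was expressed at a far lower level, with 3.95, 4.74 and 4.10 FPKM in knockdown libraries, against 2.96, 3.07 and 2.64 FPKM in control libraries. Among the 7 members with a mean of at least 200 FPKM, Eif5a and Eif1 were the 2 that were higher, 4 were lower and Eif4a1 did not pass. Over all features, 48.4% were higher and 32.4% lower. The level of 200 FPKM was chosen after the values were seen, so these counts are a description.

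**Figure D3:**
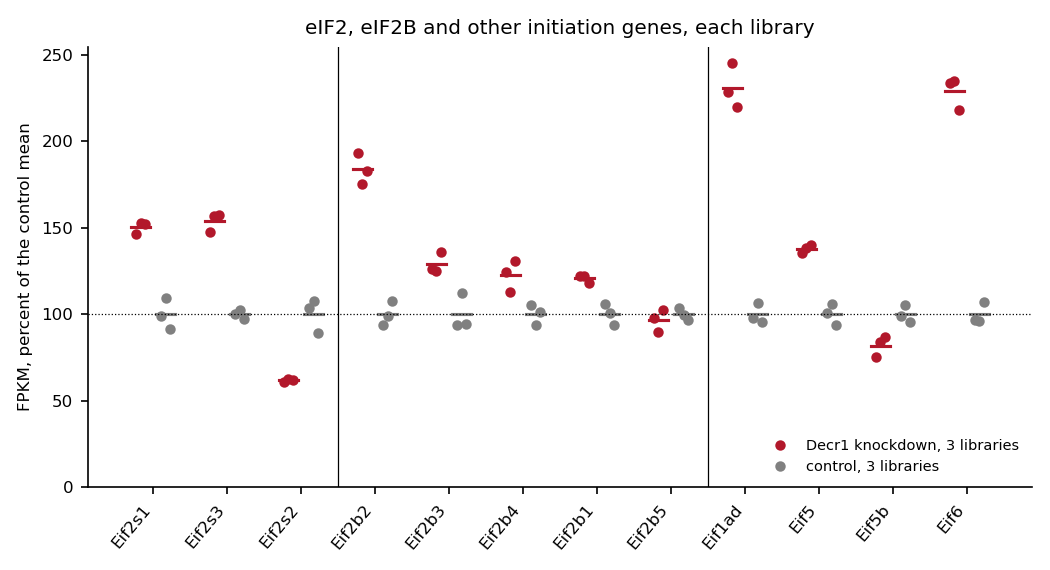
FPKM of 12 initiation genes in each library as a percent of the gene's control mean. Points are libraries (knockdown red and left, control grey and right), bars are group means and vertical lines separate eIF2, eIF2B and the other genes. Eif2s2 lies below its control libraries while Eif2s1 and Eif2s3 lie above theirs, and the Eif6 knockdown mean is at 229%.

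The eIF3 genes divided. Of 13 tested, 6 were higher (Eif3a, Eif3b, Eif3c, Eif3d, Eif3g and Eif3i), 5 were lower (Eif3el1, Eif3f, Eif3h, Eif3l and Eif3m), and Eif3j and Eif3k did not pass. Over all features, 48.4% were higher and 32.4% lower. Eif3d, a subunit known to bind the cap of some messages, had 97.1, 96.1 and 102 FPKM in knockdown libraries, against 55.1, 57.6 and 60.2 FPKM in control libraries (log2 fold change 0.76, SE 0.05, adjusted p = 1.84e-07). Eif3b, a scaffold subunit that contacts the small ribosomal subunit, had 106, 101 and 106 FPKM in knockdown libraries, against 67.9, 65.2 and 69.3 FPKM in control libraries (log2 fold change 0.62, SE 0.04, adjusted p = 4.11e-07). Both were higher without overlap. Eif3m had 61.9, 66.0 and 63.4 FPKM in knockdown libraries, against 102, 99.8 and 83.4 FPKM in control libraries (log2 fold change -0.56, SE 0.07, adjusted p = 4.13e-05). Eif3el1 had 40.4, 44.2 and 42.9 FPKM in knockdown libraries, against 66.9, 64.7 and 56.7 FPKM in control libraries (log2 fold change -0.55, SE 0.07, adjusted p = 2.39e-05). Eif3m and Eif3el1 were lower in every knockdown library. Eif3e itself is listed at 0 in every library, and RefSeq GRCr8 gives Eif3el1 both as a gene of its own and as a synonym of Eif3e. The reads of these 2 loci therefore cannot be told apart here.

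Among the other lower subunits, Eif3f had 106 to 112 FPKM in knockdown and 149 to 156 FPKM in control libraries, and Eif3h 121 to 130 FPKM in knockdown and 156 to 160 FPKM in control libraries. Among the other higher subunits, Eif3c had 217 to 226 FPKM in knockdown and 159 to 163 FPKM in control libraries, and Eif3a 99.6 to 106 FPKM in knockdown and 82.6 to 85.7 FPKM in control libraries. In none of these 4 genes did the groups overlap. Eif3l was lower by a smaller step, at 76.9 to 80.0 FPKM in knockdown and 88.8 to 96.0 FPKM in control libraries. Eif3g (109 to 112 FPKM in knockdown, 92.4 to 95.9 FPKM in control) and Eif3i (134 to 145 FPKM in knockdown, 123 to 130 FPKM in control) were higher only as deposited. Neither was called under the other scalings, where the Eif3i fold change was below 0, and Eif3i was also not called without knockdown replicate 1 (adjusted p = 0.0756) or control replicate 1 (0.0550). Eif3k had 57.8 to 60.4 FPKM in knockdown and 60.8 to 65.2 FPKM in control libraries and was called lower only under median-ratio (log2 fold change -0.24) and quantile (-0.22) scaling. Eif3j, the loosely bound subunit, had 15.8 to 18.9 FPKM in knockdown and 14.6 to 17.3 FPKM in control libraries, and was called higher only without knockdown replicate 3 (adjusted p = 0.0413).

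Eif3a, Eif3b, Eif3c, Eif3g and Eif3i are among the subunits that rat shares with the smaller eIF3 of budding yeast. The loosely bound Eif3j, which did not pass (log2 fold change 0.12, adjusted p = 0.172), was left out of this grouping. With Eif3j counted, not every subunit of the group would be called higher. As deposited these 5 were all higher, where 48.4% of all features were higher. They summed to 663.8 to 681.4 FPKM in knockdown libraries, against 527.9 to 540.7 FPKM in control libraries. After either other scaling only Eif3a, Eif3b and Eif3c were still called higher, and Eif3i changed sign. Of the 7 other subunits tested, apart from Eif3j, Eif3d was higher, 5 were lower and Eif3k did not pass, and they summed to 570.2 to 581.3 FPKM in knockdown libraries, against 674.1 to 687.6 FPKM in control libraries. This grouping was made after the values were seen and carries no test.

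**Figure D4:**
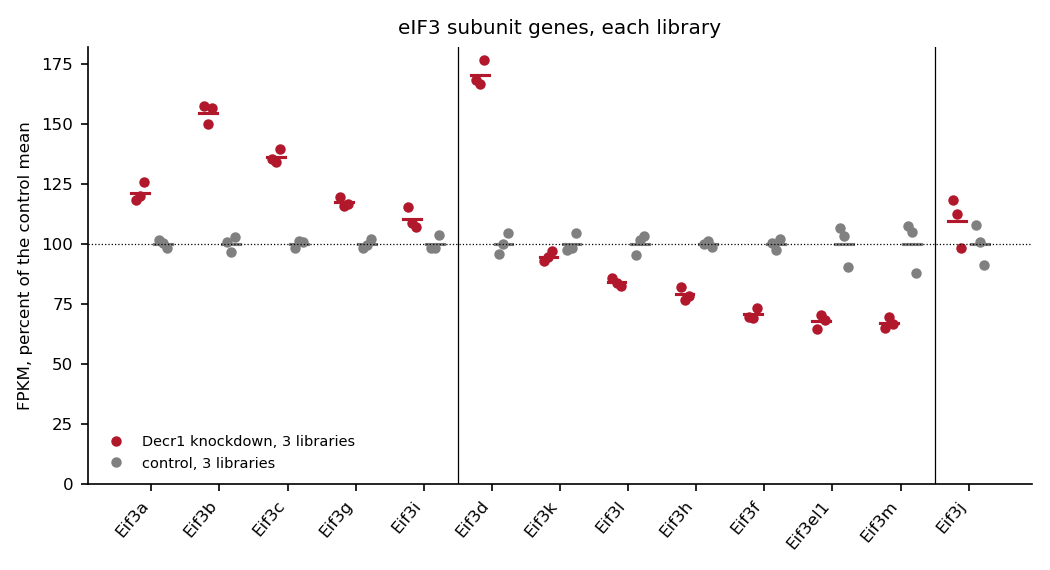
FPKM of 13 eIF3 subunit genes in each library as a percent of the gene's control mean. Points are libraries (knockdown red and left, control grey and right) and bars are group means. Vertical lines set apart 5 subunits shared with budding yeast at the left and Eif3j, left out of the grouping, at the right. The knockdown means of those 5 subunits lie above 100, while those of the other subunits lie below it apart from Eif3d and Eif3j.

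In the cap-binding complex eIF4F and its helpers, 5 of 11 genes tested were higher and 2 were lower. Over all features, 48.4% were higher and 32.4% lower. Eif4a3, a helicase of the eIF4A family that serves in the exon junction complex, had 105, 102 and 111 FPKM in knockdown libraries, against 64.7, 62.7 and 63.9 FPKM in control libraries (log2 fold change 0.72, SE 0.04, adjusted p = 1.65e-07). Eif4e, the cap-binding subunit, had 31.7, 30.5 and 27.4 FPKM in knockdown libraries, against 18.9, 22.0 and 19.4 FPKM in control libraries (log2 fold change 0.55, SE 0.07, adjusted p = 4.60e-05). Both were higher in all knockdown libraries. Eif4b, which stimulates the helicase, had 80.5, 79.9 and 84.1 FPKM in knockdown libraries, against 105, 105 and 104 FPKM in control libraries (log2 fold change -0.36, SE 0.04, adjusted p = 1.60e-05). Eif4e3, a cap-binding relative of Eif4e, had 1.09, 1.15 and 1.23 FPKM in knockdown libraries, against 2.48, 3.25 and 1.74 FPKM in control libraries. The control values of Eif4e3 spread widely but stayed above the knockdown values.

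The scaffold gene Eif4g1 had 102, 99.1 and 100.1 FPKM in knockdown libraries, against 82.4, 80.5 and 84.0 FPKM in control libraries, higher in knockdown on all 3 scales. Its relative Eif4g3 had 11.6, 11.9 and 12.3 FPKM in knockdown libraries, against 12.1, 11.8 and 11.5 FPKM in control libraries, with overlapping groups. Eif4g2, a related scaffold that does not bind Eif4e, had 163 to 172 FPKM in knockdown and 137 to 153 FPKM in control libraries, a call of higher found only on the deposited scale. The main helicase gene Eif4a1 was one of the most abundant members and did not pass, with 308, 312 and 313 FPKM in knockdown libraries, against 295, 310 and 287 FPKM in control libraries. Its paralogue Eif4a2 had 75.5, 81.2 and 80.5 FPKM in knockdown libraries, against 89.7, 82.8 and 84.5 FPKM in control libraries. Eif4a2 narrowly missed the threshold as deposited (adjusted p = 0.0505) and was lower after median-ratio (adjusted p = 0.000422) and quantile (0.000495) scaling. It also passed without control replicate 2 (adjusted p = 0.0380). Eif4h, a helicase cofactor, had 91.6 to 97.0 FPKM in knockdown and 98.2 to 103 FPKM in control libraries, and was called lower only after median-ratio (log2 fold change -0.24) and quantile (-0.25) scaling. Eif4e2, a cap-binding repressor, had 59.6, 63.4 and 60.8 FPKM in knockdown libraries, against 59.1, 52.8 and 51.1 FPKM in control libraries (adjusted p = 0.0203). Its call was lost under both other scalings and without knockdown replicate 2 (adjusted p = 0.0736), control replicate 2 (0.0598) or control replicate 3 (0.0697). Eif4e1b, known as an oocyte form, was at 0 in 5 libraries and had 1 read in control replicate 3.

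Of the 4 genes of proteins that bind eIF4E, 2 were higher and 1 lower, where 48.4% of all features were higher and 32.4% lower. Eif4enif1, which carries eIF4E into the nucleus and holds it in processing bodies, had 18.0, 17.0 and 18.7 FPKM in knockdown libraries, against 9.11, 8.52 and 9.06 FPKM in control libraries (log2 fold change 0.94, SE 0.06, adjusted p = 1.77e-07). The knockdown mean was 202% of the control mean. Among the repressors that mTOR inactivates, Eif4ebp3 had 11.8, 11.8 and 9.79 FPKM in knockdown libraries, against 7.63, 8.24 and 8.31 FPKM in control libraries. Eif4ebp2 had 19.7, 19.0 and 18.8 FPKM in knockdown libraries, against 22.2, 25.1 and 24.1 FPKM in control libraries. The 2 genes thus moved in opposite directions. Eif4ebp1, the most abundant of the 3, had 124, 127 and 114 FPKM in knockdown libraries, against 115, 115 and 123 FPKM in control libraries, and the groups overlapped.

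Since FPKM are per length, the share of a paralogue in the summed FPKM of its family could be set side by side for 7 paralogues. The share of Eef1a2 in both eEF1A genes was 8.70%, 8.82% and 8.04% in knockdown libraries, against 1.77%, 1.74% and 1.98% in control libraries, a difference of 6.69 percentage points. Eif4a2 held 20.3% ± 0.481 of both eIF4A helicase genes in knockdown and 22.4% ± 1.15 in control libraries. Eif4g3 held 10.6% ± 0.373 in knockdown and 12.5% ± 0.421 in control libraries of its sum with Eif4g1 (SD, n = 3 each). The largest of these differences was that of Eef1a2. Eif4ebp1 held 80.1% ± 0.360 of the 3 mTOR-regulated repressors in knockdown and 78.7% ± 1.03 in control libraries. In these 4 shares the groups did not overlap, each with an exact permutation p of 0.1, the smallest possible, and 0.175 after Benjamini-Hochberg adjustment over the 7 shares. The shares of Eif5a2 (0.859% in knockdown, 0.834% in control), Eif4e2 (66.4% in knockdown, 70.6% in control) and Eif1b (6.66% in knockdown, 7.78% in control) overlapped between groups, with exact permutation p of 0.8, 0.2 and 0.2.

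**Figure D5:**
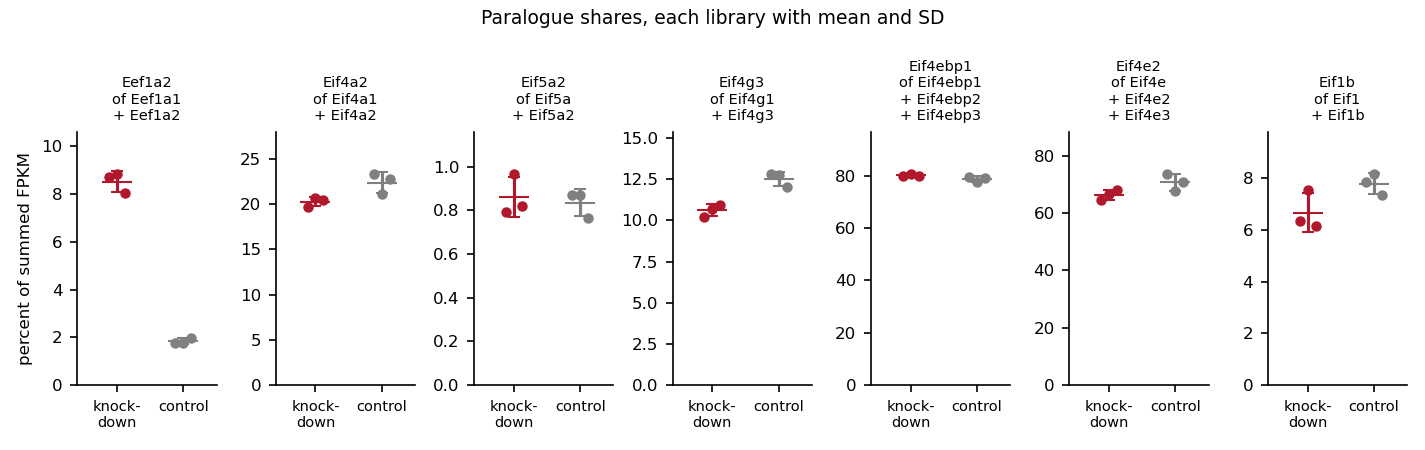
Share of the summed FPKM of a family held by the paralogue named above each panel, in percent, with each axis starting at 0. Points are libraries (knockdown red and left, control grey and right), with the mean and SD. Eef1a2 held 8.04% to 8.82% in knockdown and 1.74% to 1.98% in control libraries.

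Genes that act on these factors moved as follows. They come from lists of genes outside the members, also chosen with earlier results of these data known. Over all features, 48.4% were higher and 32.4% lower as deposited, the shares to set beside the counts that follow. Of the 4 kinases that phosphorylate eIF2, 3 were higher and 1 lower (2 higher and 1 lower after either other scaling). Eif2ak2, the interferon-inducible kinase activated by double-stranded RNA, had 38.8, 44.6 and 39.6 FPKM in knockdown libraries, against 14.9, 12.2 and 11.8 FPKM in control libraries (log2 fold change 1.59, SE 0.09, adjusted p = 6.41e-08). Eif2ak1, the heme-regulated kinase, averaged 22.1 ± 0.645 FPKM in knockdown and 15.7 ± 0.343 FPKM in control libraries (SD, n = 3 each). Of 10 genes of the stress response that act on or follow that phosphorylation, 7 were higher and 0 lower. Median-ratio scaling, however, left 3 higher and 2 lower, and quantile normalization 4 and 2. Ppp1r15a, the inducible subunit that guides protein phosphatase to eIF2, had 88.0, 83.3 and 85.1 FPKM in knockdown libraries, against 31.0, 32.9 and 31.3 FPKM in control libraries (log2 fold change 1.40, SE 0.05, adjusted p = 1.95e-09). Ppp1ca, a catalytic subunit of that phosphatase, averaged 368 ± 19.3 FPKM in knockdown and 200.1 ± 1.71 FPKM in control libraries. Ppp1r15a and Ppp1ca were higher on all 3 scales. Atf4, whose message is translated when eIF2 is phosphorylated, averaged 203.6 ± 4.69 FPKM in knockdown and 199.7 ± 5.22 FPKM in control libraries (named after its values were seen). It did not pass as deposited and was lower after median-ratio (log2 fold change -0.14) and quantile (-0.20) scaling.

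In the mTOR and MNK list, 10 of 19 genes were higher and 5 lower (9 and 7 after either other scaling), shares near the 48.4% and 32.4% of all features. Rheb, the GTPase that activates mTOR, had 83.1, 87.4 and 87.7 FPKM in knockdown libraries, against 42.2, 42.2 and 43.9 FPKM in control libraries (log2 fold change 0.99, SE 0.04). Rps6, the ribosomal protein phosphorylated downstream of mTOR, had 509, 509 and 523 FPKM in knockdown libraries, against 1018, 1033 and 1009 FPKM in control libraries (log2 fold change -0.99, SE 0.04). Larp1, the repressor of pyrimidine-tract messages, did not pass, at 36.5 ± 1.84 FPKM in knockdown and 35.2 ± 1.16 FPKM in control libraries (SD, n = 3 each, named after its values were seen). Of 5 genes of poly(A) binding, 0 were higher and 4 lower, where 32.4% of all features were lower. The counts for these 5 were the same on all 3 scales. Pabpc1, the main cytoplasmic poly(A)-binding protein and a partner of eIF4G, had 208, 200.9 and 206 FPKM in knockdown libraries, against 406, 436 and 408 FPKM in control libraries (log2 fold change -1.02, SE 0.04). Its relative Pabpc4 had 45.0, 46.4 and 45.3 FPKM in knockdown libraries, against 93.2, 100.1 and 100.4 FPKM in control libraries (log2 fold change -1.09, SE 0.05). Both stood below every control library.

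Enzymes that make hypusine on eIF5A and diphthamide on eEF2 were mixed, with 4 of 8 higher and 2 lower as deposited. After either other scaling 1 was higher and 3 were lower. Over all features, 48.4% were higher and 32.4% lower as deposited. Dohh, which completes hypusine, averaged 31.2 ± 4.24 FPKM in knockdown and 24.2 ± 1.94 FPKM in control libraries, and Dph2, of the first diphthamide step, 8.05 ± 0.188 FPKM in knockdown and 5.71 ± 0.538 FPKM in control libraries (SD, n = 3 each). Dph2 was higher on all 3 scales, and the call of Dohh was lost on the other scales. Of 8 genes of termination, recycling and reinitiation, 5 were higher and 2 lower (4 and 2 after either other scaling). Pelo, which rescues stalled ribosomes, averaged 77.3 ± 4.40 FPKM in knockdown and 36.5 ± 0.918 FPKM in control libraries, while Mcts1, a reinitiation factor, averaged 3.58 ± 0.177 FPKM in knockdown and 8.84 ± 0.640 FPKM in control libraries. The mitochondrial counterparts of these factors had 5 of 10 genes higher, near the 48.4% of all features, and 0 lower as deposited. Median-ratio scaling gave 4 higher and 4 lower, and quantile normalization 4 and 2. Tufm, the mitochondrial form of eEF1A, had 121, 117 and 125 FPKM in knockdown libraries, against 45.6, 45.4 and 49.6 FPKM in control libraries (log2 fold change 1.35, SE 0.05, adjusted p = 4.52e-09). Gfm1, the mitochondrial translocase that corresponds to eEF2, had 51.8, 53.5 and 58.6 FPKM in knockdown libraries, against 33.9, 32.5 and 31.0 FPKM in control libraries (log2 fold change 0.73, SE 0.06, adjusted p = 1.00e-06). Tufm and Gfm1 were higher on all 3 scales.

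Some of these levels are uncertain because of similar or overlapping genes. RefSeq names 127 pseudogenes for 36 of the members, among them 20 for Eef1a1, 16 for Eef1g, 11 for Eif5 and 10 for Eif4e, and the labels do not say how shared reads were divided. In addition, 16 members overlap another coding gene, such as Eif2b1 with Gtf2h3, Eif4enif1 with Drg1 and Eif5a with Gps2. Without a stated strand setting, reads from such neighbours cannot be told apart.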

How the data were processed

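RNA from 3 knockdown and 3 control libraries had been made into libraries with a VAHTS kit from TRIzol extracts, per the labels' protocols. The values are FPKM that the authors deposited as 1 table, a row per gene symbol and a column per library, without pooling, per the file headers. Reads had passed through fastp, HISAT2 and HTSeq, per the submitters' processing notes. The build, annotation, strand setting and tool versions behind them were not given in the sources used here. Whole reads and library depths were recovered from the steps between FPKM values (tolerance 1e-05 reads), and were used for depth and read numbers only.

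Features averaging 1 FPKM or more across the 6 libraries were tested on log2(FPKM + 1) with limma 3.58.1 in R 4.3.3 (lmFit, eBayes with a trend, no covariates), two-sided, with Benjamini-Hochberg adjustment over the 11975 features and a threshold of 0.05. This scale understates the fold change of genes with low FPKM. Shares and Decr1 were also tested with an exact permutation test in scipy 1.17.1. The limma script was tested on simulated data. The recovered reads of replicates differed by more than counting noise (chi-square per feature 7.15 to 12.3, against 493 to 539 between groups), so no library was taken for a copy of another.

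The members and all gene lists were chosen with earlier results of these data known. Named with values in every library were, in each role group, up to 4 called members of largest change without overlap and all paralogues used in the shares. Members that did not pass were given by their range, and in each pathway list the 2 genes of smallest adjusted p were named. Start sequences came from the RefSeq table of GRCr8, to which 65 members were matched, 64 by symbol and Eef1aknmt by synonym. Alternatives were another pseudocount (0.1), filter (none, or 5 FPKM), median-ratio scaling, quantile normalization, eBayes without trend, a replicate block and each library left out.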

Additional observations from a re-analysis of the deposited data

How the results depend on the processing

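The numbers of members higher and lower, and of all features higher and lower, stayed within 1.5 times those reported under every alternative, and Decr1 stayed lower. Scaling moved the split most: over all features, 5797 were higher and 3881 lower as deposited, 4777 and 4773 after median-ratio scaling, and 4989 and 4565 after quantile normalization, with medians of 0.14, 0.00 and 0.03. The log2 fold change of a member turned sign in 25 cases among 12 members, and in 5 of them the member was called as deposited or under the alternative. These 5 were Eif3i (-0.023 after median-ratio scaling, -0.068 after quantile normalization), Eif4g3 (-0.14 after median-ratio scaling), Eif4ebp1 (-0.15 after quantile normalization) and Eif4g2 (-0.0051 after quantile normalization). In the other 20 the member passed on neither side. After median-ratio scaling these were Eef1akmt4 (-0.011), Eif1a (-0.12), Eif1ax (-0.14), Eif1b (-0.030), Eif3j (-0.030), Eif4a1 (-0.099) and Eif4ebp1 (-0.11), and after quantile normalization Eif1a (-0.10), Eif1ax (-0.15), Eif1b (-0.041), Eif3j (-0.033) and Eif4g3 (-0.13). With each library left out in turn, the fold change ranged from -0.056 to 0.28 for Eef1akmt4, -0.076 to 0.016 for Eef1aknmt, -0.018 to 0.096 for Eif1a, -0.064 to 0.067 for Eif1ax, -0.088 to 0.00074 for Eif2b5 and -0.0072 to 0.033 for Eif4g3. Quantile normalization also moved the share of Eef1a2 to a difference of 5.32 points (6.69 as deposited), that of Eif4a2 to -3.67 points (-2.12 as deposited) and that of Eif5a2 to -0.0782 points (0.0254 as deposited). The cause of these moves was not tested. Over members and alternatives, 721 values kept their direction and side of the threshold, 26 lost the call, 12 gained one and 25 changed sign. Same-numbered libraries did not deviate together (correlation of their deviations from the group means over features -0.0027, 0.068 and -0.071). With the replicate number as a block, 28 members were higher and 19 lower, and the call of Eif2d was lost (adjusted p = 0.0522); the block changed no other member's call. Low levels limit Eef2kmt, Eif4e3 and the eEF1A methyltransferases, for example 98 to 228 reads per library for Eef2kmt.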

Other observations

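A terminal oligopyrimidine tract is a known feature of ribosomal protein messages, while the runs counted above may lie anywhere in their window. The cytosolic ribosomal protein symbols of the table were counted in the same fit, after the member values had been seen. Of 103 such symbols, 90 were tested. In knockdown libraries 75 were lower and 8 higher, against 32.4% lower and 48.4% higher over all features, with a median log2 fold change of -0.47. After median-ratio scaling 77 were lower and 5 higher, and after quantile normalization 68 lower and 9 higher. Their levels summed to 37166 to 37730 FPKM in knockdown libraries and 52311 to 54532 FPKM in control libraries. The start sequences of these symbols were not examined on their own. Whether start-site runs have a part in these values was not tested.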
